A study of Mus musculus with 2 samples.

Results

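Transcripts of 7 small leucine-rich proteoglycans were followed through every cell class of postnatal day 2 mouse back skin epidermis. The members are Dcn (decorin), Bgn (biglycan), Lum (lumican), Fmod (fibromodulin), Prelp, Omd (osteomodulin) and Ogn (osteoglycin, also called mimecan), taken by their symbols from the 56694 genes of the count matrices. All 7 were found. The family was picked because Dcn was already known to lead the genes of the matrix-like keratinocytes in these libraries, so its level there is a description of the value that chose it.

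Epidermal whole mounts of dorsal skin were dissociated with trypsin after collagenase and DNase treatment and rinsing off of dermal residues, and single cells were profiled with a 10x Genomics kit that counts unique molecular identifiers (UMIs) at the 3′ ends of polyadenylated RNA. There was 1 library per genotype. The Gli2_EKO library came from mice on a C57Bl/6N background in which Cre driven by the keratin 14 promoter, active in basal keratinocytes, deletes a floxed Gli2, and the control library (genotype WT in the labels) came from floxed littermates without Cre. How many mice went into a library was not given in the sources used here, and fibroblasts are not a cell type in which this promoter drives Cre.

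The 2 libraries held 6326 (control) and 4296 (Gli2_EKO) barcodes with 71021773 and 48866478 UMIs, and shared 0 barcodes. After filtering, 4456 and 3093 cells with a median of 11827.5 and 11936 UMIs remained. Of these, 3321 and 2307 were keratinocytes and 848 and 647 fibroblasts. UMIs of Gli2 give no check of the deletion, since its 3′ end was not known to lie in the deleted stretch, and in basal cells of the interfollicular epidermis (IFE) they stood at 59.9 and 100 UMIs per 1000000 UMIs (CPM). With 1 library per genotype no difference between genotypes can be tested. Every interval below is an exact 95% interval that covers counting error only.

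Small leucine-rich proteoglycans are secreted proteins built around a curved stretch of leucine-rich repeats. Decorin and biglycan form class I and carry chondroitin or dermatan sulfate chains. Lumican, fibromodulin, Prelp and osteomodulin form class II, of which several carry keratan sulfate, and osteoglycin belongs to class III. In the dermis they are products of fibroblasts that bind collagen fibrils and set fibril diameter and spacing, and several also bind growth factors and cell-surface receptors, decorin for example TGF-beta and the EGF receptor.

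The members lie in pairs along the genome (GRCm39, GENCODE vM39). Dcn spans chr10:97315275-97358155 and Lum chr10:97400990-97408577, both on the plus strand and 42.8 kb apart. Omd (chr13:49735938-49746298) and Ogn (chr13:49761349-49780412) are 15.1 kb apart on the plus strand, inside Cenpp, which runs on the opposite strand. Fmod (chr1:133964992-133976015, plus strand) and Prelp (chr1:133837335-133857971, minus strand) are 107 kb apart, and Bgn lies alone at chrX:72527208-72539541 on the plus strand.

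The 250 bases before the start of 5 members were read from RefSeq promoter tables of the GRCm38.p6 build, which differs from the build of the counts, and Dcn and Lum have no entry there. Bgn (chrX:73483351-73483600) and Ogn (chr13:49607765-49608014), both plus strand, are shown because Bgn was abundant in outer root sheath keratinocytes as well as in fibroblasts, while Ogn was near 0 in every keratinocyte class. Capitals mark matches, on either strand, to TATAAA (the element bound by TBP), CTTTGA (a TCF/LEF core) or GGGCGG (GC box), and overlapping matches run together.
Bgn: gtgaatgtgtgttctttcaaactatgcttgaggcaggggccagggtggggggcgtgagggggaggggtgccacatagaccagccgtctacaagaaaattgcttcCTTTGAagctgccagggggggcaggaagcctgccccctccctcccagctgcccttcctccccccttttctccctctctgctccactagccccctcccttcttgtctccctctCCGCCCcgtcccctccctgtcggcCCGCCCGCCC
Ogn: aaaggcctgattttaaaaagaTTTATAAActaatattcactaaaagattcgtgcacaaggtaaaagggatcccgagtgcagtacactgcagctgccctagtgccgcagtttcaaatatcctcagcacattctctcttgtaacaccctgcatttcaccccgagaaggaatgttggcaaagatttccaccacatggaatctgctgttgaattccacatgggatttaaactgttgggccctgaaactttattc
The Bgn stretch held 1 TCF/LEF core and 3 GC boxes but 0 TBP elements. The Ogn stretch held 2 overlapping matches to the TBP element, which began 229 and 227 bases before the start, and no other match. Omd had 2 TCF/LEF cores, and Fmod and Prelp had none of the 3 motifs. Over 32851 promoter windows of the same length, TATAAA occurred in 12.4%, CTTTGA in 13.8% and GGGCGG in 32.7%. These matches describe letters and not bound sites.

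Cell classes came from graph-based clusters named by marker genes, and the plot of members by class gives the level of each member in them. Keratinocytes were clustered without the 7 members. Matrix-like cells (506 control and 189 Gli2_EKO cells) carried markers of the proliferating hair matrix such as Shh, Msx1 and Wif1. Inner root sheath (IRS)-like, hair shaft/lineage-like, outer root sheath (ORS)-like, companion layer-like, sebaceous gland (SG)-like, IFE basal-like and IFE suprabasal-like classes were named likewise. HF1 and HF2 are the names given to a pair of ORS groups in the hair follicle, ORS/SC marks ORS cells with stem cell markers, and 1 cluster with Tagln and Acta2 was left unnamed. HF1 ORS-like, ORS/SC-like and unnamed cells together are called the ORS group, a grouping chosen after the data were seen. Levels in CPM are the UMIs of a gene in all cells of a class of 1 library per 1000000 UMIs of those cells. They count 3′ ends and are not divided by length.

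**Figure D1:**
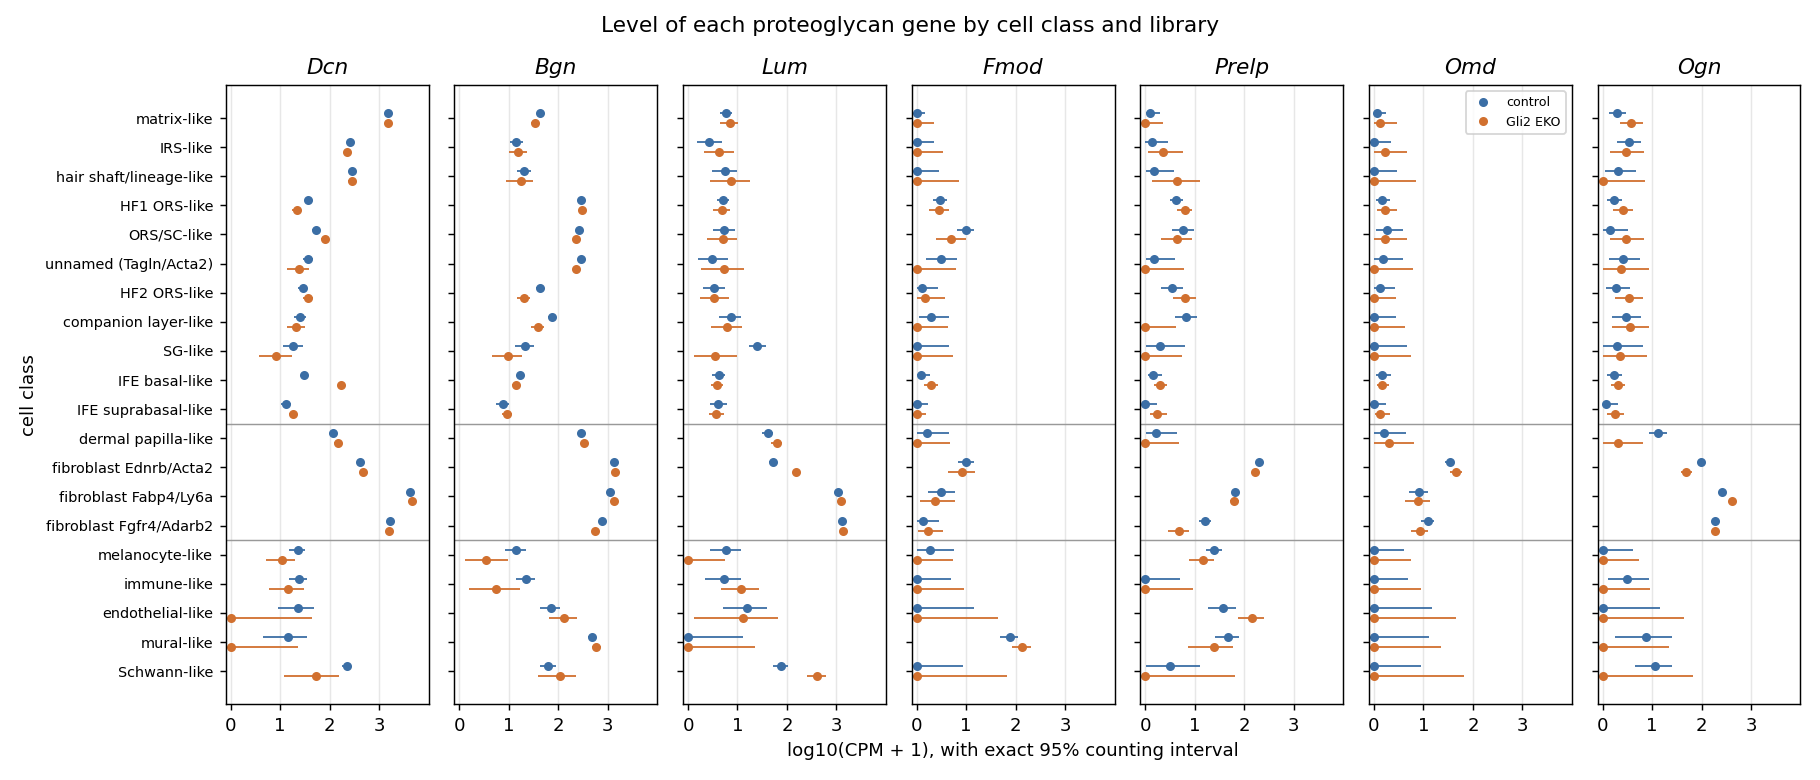
Level of each of the 7 members (CPM, log axis) in the cell classes of the control and the Gli2_EKO library, with bars for the 95% counting interval. Dcn reaches the same range in matrix-like keratinocytes, at 1526 and 1527 CPM, as in fibroblasts, at 1669 and 1839 CPM, while Ogn and Omd stand high in fibroblast classes and near 0 in keratinocyte classes.

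Decorin transcripts were nearly as abundant in matrix-like keratinocytes as in fibroblasts. In the control library, Dcn stood at 1526 CPM (1498 to 1554, 11477 UMIs) in matrix-like cells and at 1669 CPM (1644 to 1694, 16545 UMIs) in fibroblasts. In the Gli2_EKO library, it stood at 1527 CPM (1482 to 1572, 4392 UMIs) and 1839 CPM. The matrix-like level was thus 0.914 and 0.830 times that of fibroblasts, and 25.7 and 16.7 times that of the other keratinocytes. Keratinocytes held 45.2% of all Dcn UMIs in the control and 36.9% in the Gli2_EKO library, and fibroblasts 54.3% and 63.0%.

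Within keratinocytes, Dcn followed the inner lineages of the hair follicle. IRS-like cells, which form the sheath around the growing hair, had 256 CPM (238 to 275) in the control and 227 CPM (204 to 252) in the Gli2_EKO library. Hair shaft/lineage-like cells had 278 and 280 CPM. The intervals of these classes overlapped within each library, and both classes lay far below matrix-like cells. All other keratinocyte classes of the control library stood at 51.1 CPM or less, from ORS/SC-like cells (51.1 CPM) down to IFE suprabasal-like cells (12.2 CPM). In the Gli2_EKO library, IFE basal-like cells (166 CPM) and ORS/SC-like cells (80.3 CPM) were the next classes, and SG-like cells the lowest with 7.39 CPM from 6 UMIs.

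Matrix-like cells joined a pair of clusters that differed in Dcn. The larger one (399 control and 159 Gli2_EKO cells) had 1633 and 1590 CPM. The smaller one (107 and 30 cells), led by Sox5, Bach2 and Edar, had 428 and 471 CPM, a median of 5999 and 4962.5 UMIs per cell, and, over both libraries, 9.12% mitochondrial UMIs against 2.36% in the larger cluster. The larger cluster thus carries the matrix-like level in both libraries, and the part of shallow depth and mitochondrial share in the lower level was not tested. Cells picked by UMIs of at least 3 matrix markers and at most 1 IRS marker instead of by clusters (194 and 65 cells, of which 95 and 32 were in the matrix-like class) had 909 and 1224 CPM of Dcn, above every other keratinocyte class but below the clustered level.

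Dcn UMIs were spread over most matrix-like cells. With every cell thinned to 5000 UMIs, 326 of 445 control cells (73.3%, 68.9 to 77.3) and 115 of 165 Gli2_EKO cells (69.7%, 62.1 to 76.6) had at least 1 Dcn UMI, and 77.9% and 79.4% did before thinning. Melanocyte-like, immune-like and endothelial-like cells, which served as cells that should lack Dcn, had a Dcn UMI in 17 of 172 (9.88%, 5.86 to 15.4) and 5 of 100 cells (1.64% to 11.3%) when thinned and in 19.5% and 12.5% before thinning, at median depths of 8877.5 and 10797 UMIs against 15075 and 14806 in matrix-like cells. Their level was 21.9 and 10.3 CPM. The matrix-like share was therefore far above this background share. In fibroblasts the thinned shares were 71.7% and 76.1%.

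The amount per cell varied widely. The median was 3 Dcn UMIs per 5000 in both libraries, the 90th percentile was 21.6 and 23, and the highest cell had 58 and 42. The variance over the mean, which is 1 for pure counting noise, was 13.3 and 11.8. Of control matrix-like cells, 26.7% had 0 and 11.9% had 20 or more Dcn UMIs, and of Gli2_EKO cells 30.3% and 15.8%, as the plot of Dcn per cell shows. Fibroblasts outside the dermal papilla had a median of 6 in both libraries and a variance over the mean of 13.1 and 12.5. They join subclasses of unlike Dcn level (405 to 4283 CPM in the control). Their mean was also higher, at 10.1 and 10.7 against 7.50 and 7.80 UMIs in matrix-like cells. Like values of this index therefore do not show a like spread within a class.

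**Figure D2:**
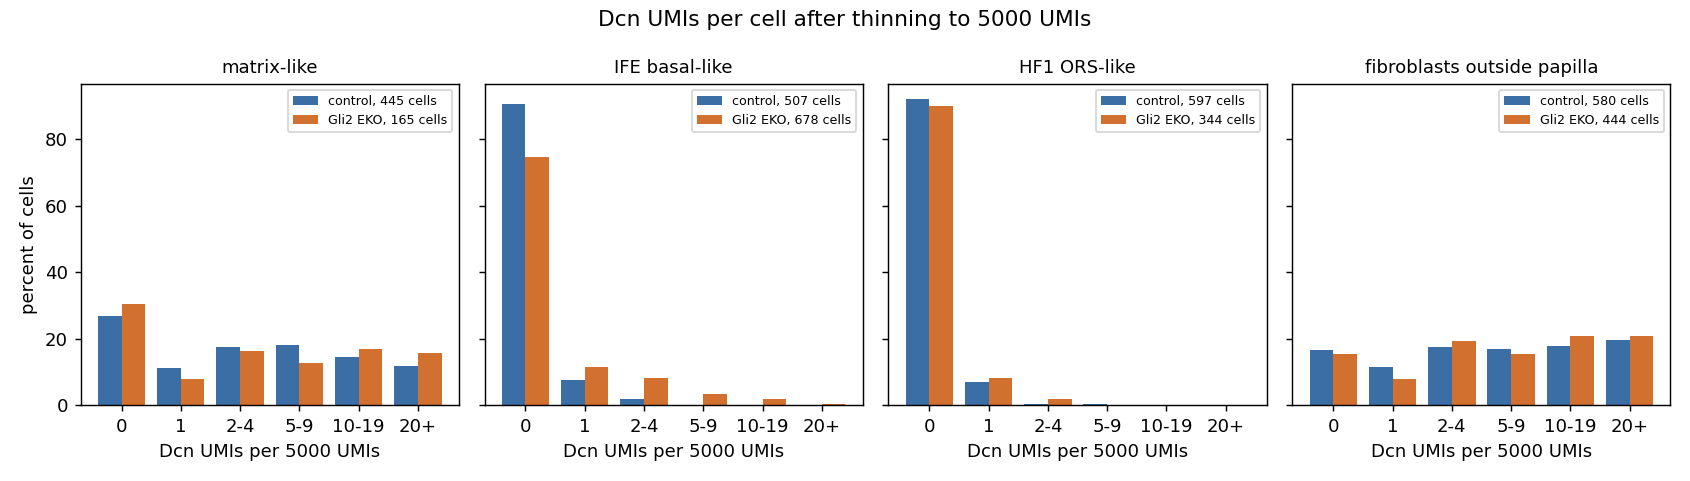
Share of cells by number of Dcn UMIs, with each cell thinned to 5000 UMIs, in the control and the Gli2_EKO library. In matrix-like cells 26.7% and 30.3% of cells had no Dcn UMI, against 90.5% and 74.8% in IFE basal-like cells.

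Cells with Shh, the hedgehog ligand of the matrix, had more Dcn. In the control library, 77 matrix-like cells with an Shh UMI had a mean of 16.1 Dcn UMIs and 368 cells without one had 5.70. In the Gli2_EKO library the means were 10.3 in 37 cells and 7.09 in 128 cells. The difference pointed the same way in both libraries, and cells are not replicates, so it has no test. For Krt71, a keratin of the IRS, the order was not the same, with 5.65 UMIs in 23 control cells with Krt71 against 7.60 without, and 10.2 in 6 Gli2_EKO cells with Krt71 against 7.71 without.

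Dcn in keratinocytes was not accompanied by the fibrillar collagen transcripts that accompany it in fibroblasts. The UMIs of Col1a1, Col1a2 and Col3a1, the chains of collagens I and III, summed to 107 and 91.8 CPM in matrix-like cells against 24478 and 21264 CPM in fibroblasts. Matrix-like cells had 14.2 Dcn UMIs per collagen UMI (13.3 to 15.3) in the control and 16.6 (14.7 to 18.9) in the Gli2_EKO library, and fibroblasts 0.0682 and 0.0865. The ratio was 209 and 192 times higher in matrix-like cells.

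The same ratio separated matrix-like cells from every fibroblast subclass and from cells that hold collagen only at a background level. In the 4 fibroblast subclasses it ran from 0.0155 to 0.0988 in the control and from 0.0202 to 0.109 in the Gli2_EKO library. In melanocyte-like, immune-like and endothelial-like cells it was 0.163 and 0.135 at 135 and 76.6 CPM of collagen, so matrix-like cells exceeded them 87.6- and 124-fold at a like collagen level. Col1a1, Col1a2 and Col3a1 made up 33.1%, 28.04% and 38.8% of the collagen UMIs in control matrix-like cells and 31.9%, 36.2% and 31.9% in control fibroblasts.

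**Figure D3:**
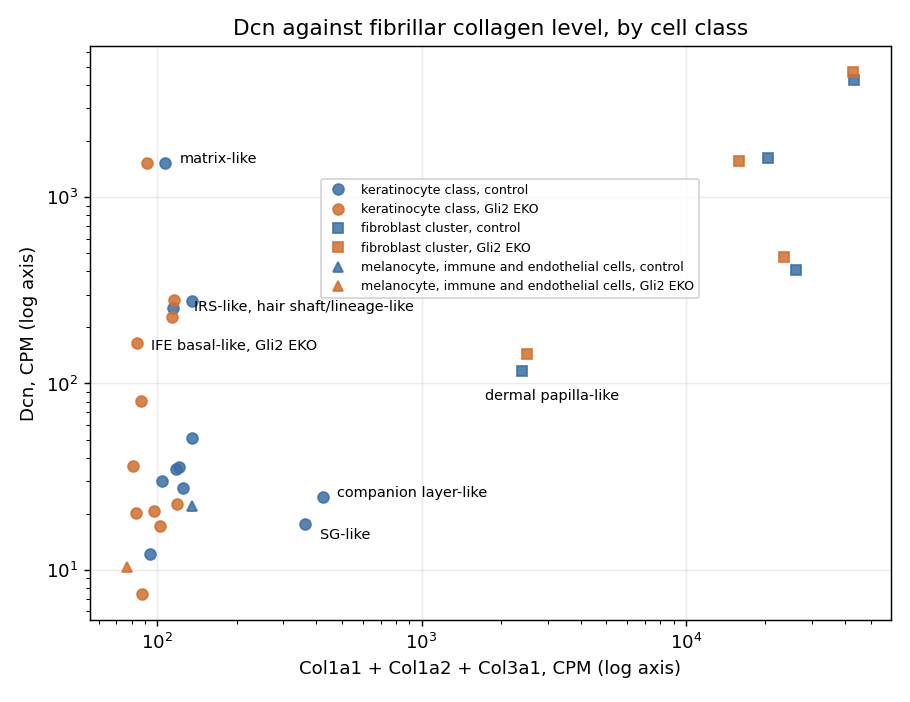
Dcn level against the summed level of Col1a1, Col1a2 and Col3a1 (both CPM, log axes), with 1 point per cell class and library. Fibroblast classes lie at high collagen, and matrix-like cells share the collagen level of other keratinocytes, 107 and 91.8 CPM, with Dcn at 1526 and 1527 CPM.

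IRS-like cells had 2.24 and 1.99 Dcn UMIs per collagen UMI and hair shaft/lineage-like cells 2.05 and 2.41. HF1 ORS-like cells had 0.295 and 0.213, and IFE suprabasal-like cells 0.130 and 0.167. The control companion layer-like and SG-like cells, which had the highest collagen levels of the keratinocyte classes (423 and 363 CPM), had the lowest ratios (0.0580 and 0.0483), near the fibroblast ratio of 0.0682. Across keratinocyte classes Dcn and collagen therefore did not go together. Over 22 points (11 keratinocyte classes in 2 libraries), Pearson's r of log2(CPM + 10) between Dcn and Col1a1, Col1a2 and Col3a1 was -0.17, -0.13 and -0.18, and over 40 points (20 classes of all cell types in 2 libraries) it was 0.63, 0.60 and 0.57. The points share libraries and depth, and r is a description.

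Single cells gave the same picture. Among matrix-like cells thinned to 5000 UMIs, the 264 control cells with no collagen UMI had a mean of 7.66 Dcn UMIs, the 131 cells with 1 had 7.63, and the 50 cells with 2 or more had 6.34. In the Gli2_EKO library the means were 7.24, 9.93 and 5.94 in 107, 42 and 16 cells. Pearson's r between Dcn and collagen UMIs was -0.05 and 0.01 over 445 and 165 matrix-like cells, and 0.60 and 0.71 over 580 and 444 fibroblasts outside the dermal papilla. At a mean of 0.578 and 0.491 collagen UMIs per matrix-like cell a correlation would be weakened by sparse counts, which the means by collagen UMI do not remove.

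Other fibroblast markers were at a background level in these cells. The 7 fibroblast markers summed to 17.7 and 17.03 CPM in matrix-like cells, all 7 being detected and none above 10 CPM, against 3496 and 3622 CPM in fibroblasts, 13.9 and 13.1 CPM in IFE basal-like cells, and 51.3 and 52.3 CPM in melanocyte-like, immune-like and endothelial-like cells. Of the 8 dermal papilla markers, whose sum was 94.1 and 74.0 CPM, most came from Bmp4 (68.6 and 58.0 CPM). Matrix-like cells without any fibroblast marker UMI (408 and 145 cells) still had 1690 and 1711 CPM of Dcn.

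Biglycan, the other class I member, lay in a different part of the follicle. Bgn stood at 285 CPM (276 to 295, 3779 UMIs) in the ORS group of the control and at 274 CPM (261 to 286, 1836 UMIs) in that of the Gli2_EKO library. This was 0.303 and 0.326 times the fibroblast level of 941 and 840 CPM, and the ORS group held 81.2% and 81.7% of all Bgn UMIs of keratinocytes. Matrix-like cells, the class richest in Dcn, had 41.2 and 33.0 CPM of Bgn. IRS-like cells had 13.1 and 14.5 CPM, and IFE basal-like cells 16.2 and 12.7 CPM.

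Within the ORS, Bgn separated the classes. HF1 ORS-like cells had 291 and 296 CPM, ORS/SC-like cells 265 and 228 CPM, and the unnamed Tagln and Acta2 cells 286 and 228 CPM. HF2 ORS-like cells, in contrast, had 41.4 and 19.2 CPM, and companion layer-like cells 72.6 and 37.9 CPM. The 3 classes of the ORS group were the high ones in both libraries, and the remaining classes were all below them. The group was joined after the data were seen and leaves out HF2 ORS-like cells. Its high level and its share of Bgn UMIs therefore only describe the classes joined.

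Bgn was detected in most cells of the ORS group. With cells thinned to 5000 UMIs, 698 of 997 control cells (70.0%) and 388 of 559 Gli2_EKO cells (69.4%) of the ORS group had a Bgn UMI, against 13 of 172 and 3 of 100 melanocyte-like, immune-like and endothelial-like cells and 88.1% and 83.0% of fibroblasts. The highest ORS group cell had 9 UMIs in both libraries, and the variance over the mean was 1.48 and 1.49 at a mean of 1.46 and 1.42 UMIs. This index lies closer to 1 at a low mean. It therefore cannot be set against that of Dcn in matrix-like cells, where the mean was 7.50 and 7.80 UMIs. Pearson's r between Bgn and collagen UMIs was 0.01 and -0.07 over the cells of the ORS group. Dcn and Bgn had r of -0.16 over the 22 keratinocyte points.

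Most UMIs of the class II members lumican, Prelp and osteomodulin were in fibroblasts. Lum, a neighbour of Dcn on chromosome 10, stood at 691 and 923 CPM in fibroblasts, which held 96.6% and 97.7% of its UMIs. In matrix-like cells it stood at 4.79 and 5.91 CPM from 36 and 17 UMIs. Dcn UMIs per Lum UMI were 319 (230 to 455) and 258 (161 to 444) in matrix-like cells and 2.41 (2.35 to 2.48) and 1.99 (1.93 to 2.06) in fibroblasts. The pair that lies 42.8 kb apart thus had Dcn without Lum in the hair matrix.

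Prelp, a heparin-binding member, had 74.5 and 45.3 CPM in fibroblasts, which held 85.5% and 77.6% of its UMIs, and Omd, an acidic keratan sulfate proteoglycan, 14.6 and 13.2 CPM. Fibroblasts held 145 of the 158 control Omd UMIs and 88 of the 101 Gli2_EKO Omd UMIs. No keratinocyte class exceeded 5.77 CPM of Prelp or 0.811 CPM of Omd. Among fibroblasts, both members were highest in the same subclass, that led by Ednrb and Acta2, with 193 and 163 CPM of Prelp and 33.1 and 44.5 CPM of Omd.

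Fibromodulin was the rarest member, with 104 and 61 UMIs in all. Its highest level was in mural-like cells, the contractile cells of vessel walls, with 75.4 and 134 CPM from 23 UMIs in each library. In keratinocytes the highest class was ORS/SC-like, with 8.92 and 4.01 CPM. Matrix-like cells had 0 UMIs in both libraries, which allows up to 0.399 CPM in the control and 1.04 CPM in the Gli2_EKO library (3 counts).

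Osteoglycin, the class III member, stood at 150 and 182 CPM in fibroblasts, which held 96.7% and 96.3% of its UMIs. No keratinocyte class exceeded 2.36 CPM in the control or 2.78 CPM in the Gli2_EKO library. Ogn UMIs exceeded those of its neighbour Omd 10.2-fold (8.62 to 12.2) in control fibroblasts and 13.8-fold (11.1 to 17.3) in Gli2_EKO fibroblasts. Since Omd and Ogn lie inside Cenpp on the other strand, reads of Cenpp could reach them only if strand were ignored in counting.

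The fibroblast subclasses differed more in these members than the libraries did. Cells led by Fabp4 and Ly6a had the highest Dcn (4283 and 4704 CPM) and Ogn (262 and 420 CPM). Cells led by Fgfr4 and Adarb2 had the highest Lum (1296 and 1377 CPM), with 1632 and 1570 CPM of Dcn. Cells led by Ednrb and Acta2 had the highest Bgn (1358 and 1399 CPM) but 405 and 476 CPM of Dcn and 51.1 and 152 CPM of Lum. Each of these 3 subclasses thus led in different members in both libraries. Dermal papilla-like cells, the inductive fibroblasts at the follicle base (195 and 148 cells), had the least Dcn of the 4 (117 and 144 CPM), with 291 and 331 CPM of Bgn and 39.9 and 61.0 CPM of Lum. Matrix-like keratinocytes, which sit around the papilla in the follicle, had 13.1 and 10.6 times the Dcn level of these cells.

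Between genotypes, few members differed 2-fold, and few genes of any kind did. With so few members, counts of 0 below are near the share of all genes and are no trait of the members. Ratios are given as the log2 ratio of Gli2_EKO over control CPM, without a test. In matrix-like cells, Dcn had a log2 ratio of 0.00 (-0.05 to 0.05), and 0 of the 3 members with at least 50 UMIs differed 2-fold either way, where 3.32% of 10326 genes did. In the ORS group it was 0 of 5 members, where 2.29% of 11983 genes did, and Bgn had -0.06 (-0.14 to 0.02). In fibroblasts it was 0 of 6 members against 1.67% of 12302 genes. Prelp there ranked 335th from the lowest ratio (-0.72) and Lum 798th from the highest (0.42). In dermal papilla-like cells it was 0 of 3 against 2.17% of 7758 genes. In IFE basal-like cells it was 1 of 3, Dcn, against 2.69% of 11532 genes.

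**Figure D4:**
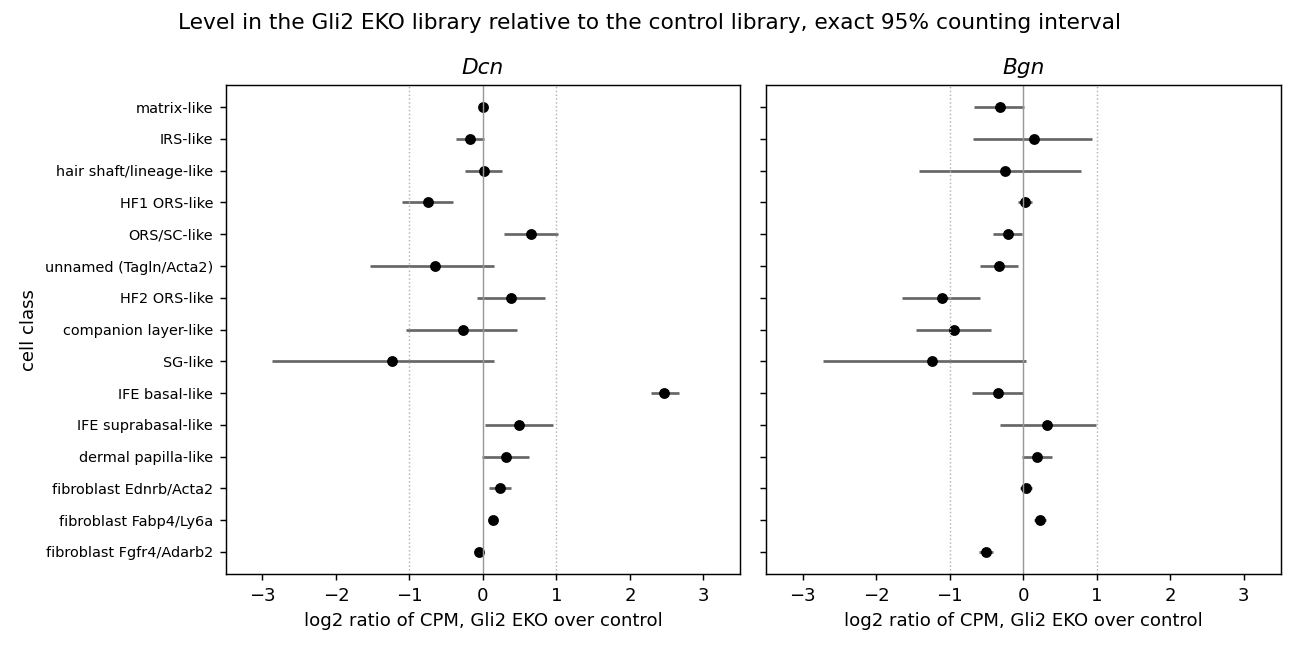
Log2 ratio of Gli2_EKO over control CPM for Dcn and Bgn in keratinocyte classes and fibroblast subclasses, with bars for the 95% counting interval. Dcn lies at 0.00 in matrix-like cells and at 2.47 in IFE basal-like cells.

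The Dcn level of matrix-like cells was close between libraries, but the cells were fewer in the Gli2_EKO library (189 of 2307 keratinocytes against 506 of 3321), and they held 22.6% of all Dcn UMIs there against 37.7% in the control. Bgn in matrix-like cells had a log2 ratio of -0.32 (-0.67 to 0.02), an interval that includes 0. Among the other follicle classes, Dcn had -0.17 (-0.36 to 0.01) in IRS-like, 0.01 in hair shaft/lineage-like and 0.65 (0.28 to 1.02) in ORS/SC-like cells. In HF1 ORS-like cells it had -0.75 (-1.10 to -0.41), but 3 control cells held 46.3% of the Dcn UMIs. Without the cells of 5 or more Dcn UMIs, 3 in the control and 1 in the Gli2_EKO library, the levels were 18.8 and 19.6 CPM. Bgn was lower in Gli2_EKO in HF2 ORS-like cells, with -1.11 (-1.65 to -0.59), and in companion layer-like cells, with -0.94 (-1.46 to -0.44), both classes of low Bgn. The collagen level of these classes also differed, from 125 to 80.6 CPM and from 423 to 82.8 CPM, and its part in the result was not tested.

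Dcn in IFE basal-like cells was the 1 member past 2-fold in the 5 classes counted above. It stood at 29.9 CPM (26.4 to 33.7, 264 UMIs in 534 cells) in the control and at 166 CPM (158 to 173, 1822 UMIs in 711 cells) in the Gli2_EKO library. The log2 ratio was 2.47 (2.28 to 2.66), the 12th highest of 11532 genes. Both clusters of the class showed it, with 26.5 against 164 CPM and 32.6 against 167 CPM. After thinning to 5000 UMIs, 48 of 507 control cells (9.47%, 7.06 to 12.4) and 171 of 678 Gli2_EKO cells (25.2%, 22.0 to 28.7) had a Dcn UMI, and 23.2% and 39.9% did before thinning. The control share was close to the 9.88% of control cells that should lack Dcn. In the Gli2_EKO library, 5 of 100 such cells had a Dcn UMI. The source of the control UMIs was not tested. The size of the ratio depended on the removal of doublets, with 1.38 when none were removed (63.3 CPM in the control) and 3.64 when the top 16% of doublet scores were removed (13.6 CPM in the control).

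Collagen transcripts and the neighbouring Lum did not go with Dcn in these cells. Dcn per collagen UMI was 0.288 (0.250 to 0.330) in control and 1.98 (1.83 to 2.15) in Gli2_EKO IFE basal-like cells, while collagen stood at 104 and 83.5 CPM and the fibroblast markers at 13.9 and 13.1 CPM. Dcn UMIs per Lum UMI were 9.43 (6.37 to 14.5) and 58.8 (41.3 to 86.8). The log2 ratios of Bgn and Lum in the class were -0.35 (-0.70 to -0.00) and -0.17 (-0.96 to 0.62).

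The UMIs were held by a minority of cells. Cells with 5 or more Dcn UMIs numbered 6 of 534 (1.12%) in the control and 95 of 711 (13.4%) in the Gli2_EKO library, and held 38.6% and 82.1% of the Dcn UMIs of the class. Without them the levels were 18.7 and 35.3 CPM. The plot of IFE basal-like cells by Dcn UMIs gives other genes in these cells, described by level because the cells were chosen by Dcn after its values were seen.

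**Figure D5:**
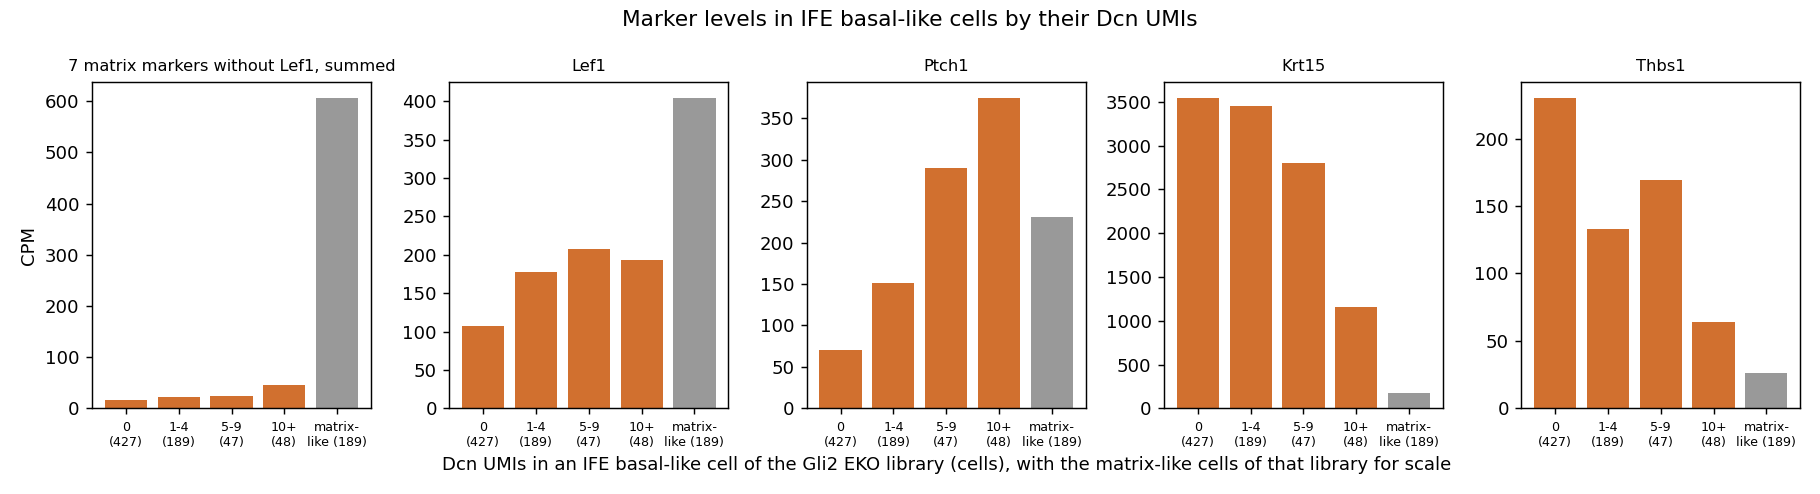
Levels (CPM, linear axes) in IFE basal-like cells of the Gli2_EKO library grouped by the number of Dcn UMIs in a cell. Shown are Lef1, Ptch1, Krt15, Thbs1 and the sum of the matrix markers other than Lef1. The last bar of each plot gives the matrix-like cells of that library. From cells with 0 to cells with 10 or more Dcn UMIs, Ptch1 goes from 70.4 to 375 CPM and Krt15 from 3545 to 1162 CPM.

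In the Gli2_EKO library, the 427 cells with no Dcn UMI, the 189 with 1 to 4, the 47 with 5 to 9 and the 48 with 10 or more had 70.4, 152, 291 and 375 CPM of Ptch1, the hedgehog receptor and target gene. Lef1, a nuclear effector of Wnt signalling, stood at 107, 177, 207 and 194 CPM. Krt15, a keratin of basal cells, stood at 3545, 3456, 2807 and 1162 CPM, and Thbs1, a leading gene of the class, at 230, 133, 169 and 63.8 CPM. Krt5, another keratin of basal cells, stood at 8917, 9125, 9437 and 8208 CPM. Cells with 10 or more Dcn UMIs thus had higher Ptch1 and Lef1 and lower Krt15 levels than cells without Dcn, but Krt5 of a like level. Their Ptch1 was above the 231 CPM of Gli2_EKO matrix-like cells. Wnt4, a marker that named the class, stood at 680 CPM in cells without Dcn and 387 CPM in these. The class as a whole also differed between libraries, with 48.4 (control) and 133 CPM (Gli2_EKO) of Ptch1 and 58.2 and 140 CPM of Lef1. The part of this difference in the Dcn ratio was not tested. By group, the 7 matrix markers other than Lef1 summed to 16.9, 21.5, 23.8 and 44.7 CPM, far under the 607 CPM of matrix-like cells. In the 6 control cells with 5 or more Dcn UMIs they summed to 450 CPM (3 cells with 5 to 9) and 456 CPM (3 cells with 10 or more). The Dcn-rich cells of the class thus differed between libraries in their matrix markers, with only 6 control cells to compare. These control cells were also deeper, with medians of 24196 and 29994 UMIs against 15441.5 in control cells without Dcn. The Gli2_EKO cells with 5 to 9 and 10 or more had medians of 15506 and 16962 UMIs. Whether the 6 were single cells of the class was not tested. In Gli2_EKO cells with 10 or more Dcn UMIs, the class markers Krt15, Thbs1 and Wnt4 were all lower than in cells without Dcn, but Krt5 was not far from it. Gli2 stood at 208 CPM in these cells and at 77.1 CPM in cells without Dcn. Whether the name IFE basal-like holds for these cells was not tested.

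In fibroblasts, where keratin 14 does not drive Cre, the members also differed between libraries. The log2 ratio was 0.14 (0.11 to 0.17) for Dcn, -0.16 (-0.21 to -0.12) for Bgn, 0.42 (0.37 to 0.47) for Lum, -0.72 (-0.92 to -0.52) for Prelp, -0.15 for Omd and 0.28 (0.17 to 0.39) for Ogn, so counting error alone did not cover the difference for 5 of these 6. The makeup of the class differed between the libraries. Cells led by Fgfr4 and Adarb2 were 316 of 848 and 297 of 647 fibroblasts, and those led by Ednrb and Acta2 185 and 97.

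Within subclasses the ratios were not the same. For Dcn they were 0.23 (0.09 to 0.38) in Ednrb/Acta2, 0.14 (0.09 to 0.18) in Fabp4/Ly6a and -0.06 (-0.11 to 0.00) in Fgfr4/Adarb2 cells. Lum had 1.57 (1.25 to 1.90) in Ednrb/Acta2 cells, from 51.1 to 152 CPM, and 0.19 and 0.09 in the other two. Ogn had -0.98 (-1.41 to -0.57) in Ednrb/Acta2 cells, from 95.8 to 48.6 CPM, and 0.68 (0.52 to 0.84) in Fabp4/Ly6a cells, from 262 to 420 CPM. Bgn had 0.23 (0.14 to 0.32) in Fabp4/Ly6a and -0.51 in Fgfr4/Adarb2 cells. Prelp had -0.25 (-0.49 to -0.01) in Ednrb/Acta2 and -2.01 (-3.11 to -1.04, 47 and 11 UMIs) in Fgfr4/Adarb2 cells. In dermal papilla-like cells, Dcn had 0.31 (-0.02 to 0.63) and Lum 0.61 (0.09 to 1.14), while Ogn had -3.62 (-8.99 to -0.97) from 20 and 1 UMIs. Differences between 2 libraries of unknown numbers of mice can be those of the animals or of the preparation.

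Genes of the same pathway were taken from lists. Of the 18 genes that build or sulfate chondroitin and dermatan sulfate chains, 11 exceeded 10 CPM in matrix-like cells and 17 in fibroblasts in each library, and 13 and 14 in the ORS group. Csgalnact1, which starts chondroitin chains, had 115 and 161 CPM in matrix-like cells, and Chst11, a chondroitin sulfotransferase, 90.2 and 67.4 CPM. In IFE basal-like cells 11 and 9 of the 18 exceeded 10 CPM, and in melanocyte-like, immune-like and endothelial-like cells 14 and 13, so the count in matrix-like cells was not particular to them. Of these, 12 had at least 50 UMIs in matrix-like cells and 18 in fibroblasts, and 0 differed 2-fold between libraries in either, and their median log2 ratio in fibroblasts was -0.00 against -0.01 for all genes.

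Of 11 other leucine-rich proteoglycan genes, none exceeded 10 CPM in matrix-like cells, and Aspn (asporin), a close relative of Dcn, was the most abundant in fibroblasts at 927 and 767 CPM. In ORS/SC-like cells Aspn had 57.6 and 54.9 CPM. Egfr, a receptor that decorin binds, had 321 and 250 CPM in matrix-like cells and 633 and 488 CPM in the ORS group. Chst2, a keratan sulfate sulfotransferase, had 9.84 and 45.9 CPM in matrix-like cells.

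The genes whose levels were most like that of Dcn depended on the classes used. Over all 40 points and 11389 genes, Pearson's r of log2(CPM + 10) was highest for Pycr1 (0.83), a proline synthesis enzyme, Fkbp11 (0.78) and Gpc3 (0.78), with Bdkrb2 (0.74) also among the nearest. Over the 22 keratinocyte points and 10213 genes it was highest for 9530036O11Rik (0.90), Rbm28 (0.89), Scube1 (0.89), Shh (0.89) and Dlx4 (0.89), genes of which Shh is itself a matrix marker. For Bgn the keratinocyte order was led by Selenom (0.97) and Tbx1 (0.96). Lum was most like Loxl1 (0.94) and Ogn like Cpz (0.98) and Lox (0.95) over all classes. The members thus each had other nearest genes, and the points share libraries and depth.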

How the data were processed

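Single-cell libraries of day 2 epidermis, 1 per genotype, were analysed from the deposited UMI counts. Per the labels and the study's methods, the authors made these counts with Cell Ranger 9.0.1 against GRCm39 and analysed them in Seurat. Starting from the deposited counts, cells with 1000 to 8000 detected genes and under 15% mitochondrial UMIs were kept. Scrublet (scanpy 1.11.5, Python 3.11.15) marked 260 control and 5 Gli2_EKO barcodes with its automatic threshold, so the top 8% of scores per library were removed instead (388 and 269 barcodes). The study's own doublet caller was not run here. Cells were clustered in Seurat 5.3.0 (R 4.3.3) on 2000 variable genes and 20 components after a Harmony-style alignment rewritten from its published algorithm, at resolution 0.5. For keratinocytes, a list of 89 genes, the members and collagens among them, was kept out of the variable genes.

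A cluster took the name of the marker list with the highest score if the score reached 1 and at least 3 markers were detected. This limit, the joining of hair shaft and lineage lists, the ORS group and the unnamed cluster were chosen after the data were seen, and the members, gene lists and named-gene rules were chosen with earlier results of these data known. The named genes were the members, listed genes with at least 50 UMIs in the class described, class markers, and the 5 genes most like Dcn over all classes and over keratinocyte classes, among genes with at least 500 UMIs, of which 1 is not reported here. Genes most like other members, and genes described in Dcn-rich IFE basal-like cells, were chosen after their values were seen. For each class in a library, CPM intervals are Poisson, shares Clopper-Pearson and ratios conditional binomial (scipy 1.17.1). Log2 ratios across genes use genes with at least 50 UMIs and a pseudocount of 0.5 UMIs. Shares of cells were taken after thinning each cell to 5000 UMIs, leaving out shallower cells (61 of 506 control and 24 of 189 Gli2_EKO matrix-like cells). The likeness of genes uses log2(CPM + 10). The procedure was tested on simulated counts. No p-value is given, because each genotype has 1 library.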

Additional observations from a re-analysis of the deposited data

Results flagged for a closer look

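For 3 members the ratio of Gli2_EKO over control pointed in opposite directions in different cell classes, counting keratinocyte classes and fibroblast subclasses with at least 50 UMIs of the member over both libraries and a counting interval that excludes 0. None of these differences was tested, because each genotype has 1 library. Dcn had a log2 ratio of 2.47 in IFE basal-like cells and -0.75 in HF1 ORS-like cells, the latter resting on 3 control cells. In IFE basal-like cells, 95 of 711 Gli2_EKO cells held 82.1% of the Dcn UMIs. Without cells of 5 or more Dcn UMIs the levels there were 18.7 (control) and 35.3 CPM (Gli2_EKO), and the size of the ratio depended on doublet removal. Bgn had 0.23 in Fabp4/Ly6a fibroblasts and -1.11 in HF2 ORS-like cells. Ogn had 0.68 in Fabp4/Ly6a and -0.98 in Ednrb/Acta2 fibroblasts. The class pairs are the highest and lowest of the classes that met this minimum, so some spread between them would arise from choosing the extremes. Under the minimum, Lum had -3.30 in SG-like cells (25 and 2 UMIs) against 1.57 in Ednrb/Acta2 fibroblasts, and Ogn had -3.62 in dermal papilla-like cells (20 and 1 UMIs).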

How the results depend on the processing

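Of 224 values computed under alternatives, 144 stayed within the counting interval, 80 moved outside it and 0 whose interval excluded 0 changed sign. Dcn in matrix-like cells was 1481 and 1332 CPM (control and Gli2_EKO) with no doublets removed, 1692 and 1691 with the top 16% removed, 1653 and 1576 with all variable genes kept in the clustering, 1452 and 1458 with stricter cell filters, 1690 and 1711 without cells holding a fibroblast marker UMI, 1773 and 1770 scaled without mitochondrial and the 20 most abundant genes, and 909 and 1224 in cells chosen by marker UMIs. At resolution 1.0 it was 1641 in the control. Its log2 ratio there was -0.15 without doublet removal, -0.089 at resolution 1.0, -0.069 with all variable genes and 0.43 in cells chosen by marker UMIs. Its log2 ratio in IFE basal-like cells was 1.38 without doublet removal, 3.64 with the top 16% removed, 2.78 at resolution 1.0, 3.23 with stricter filters and 2.15 without fibroblast marker UMIs. Dcn per collagen UMI in matrix-like cells was 12.9 without doublet removal and 15.7 with all variable genes (control), 16.5 and 22.2 with the top 16% removed, 16.4 and 19.8 without fibroblast marker UMIs, and 8.21 and 13.6 by marker UMIs. In control fibroblasts it was 0.0696 without doublet removal. The share of matrix-like cells with Dcn was 77.4% with the top 16% removed, 68.6% with stricter filters and 59.3% by marker UMIs (control), and 58.0% and 60.2% at 2000 UMIs.

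Bgn in the ORS group was 269.9 and 260.4 CPM without doublet removal, 300.3 and 298.0 with stricter filters, 328 and 315 with the other scaling, and 276 at resolution 1.0 in the control. The share of its cells with Bgn was 66.7% without doublet removal and 73.3% with stricter filters (control), and 40.5% and 40.6% at 2000 UMIs. With genes of at least 20 UMIs, 6.37% of genes in matrix-like cells and 3.98% in fibroblasts differed 2-fold. The cause of these moves was not tested, except that fewer UMIs per cell lower a share by construction. No paired analysis was possible because each genotype has 1 library. For the same reason no replicate could be left out. The depth limits Fmod, Omd and Prelp in keratinocytes, where few UMIs were counted.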

Other observations

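Members also appeared in small classes that enter no comparison above. Schwann-like cells (41 control and 7 Gli2_EKO cells) had 219 and 52.8 CPM of Dcn and 73.6 and 405 CPM of Lum, the latter from 35 and 23 UMIs. Col1a1, Col1a2 and Col3a1 summed to 4472 and 4418 CPM in them, against 135 and 76.6 CPM in melanocyte-like, immune-like and endothelial-like cells. The source of their Dcn and Lum UMIs was not tested. Endothelial-like cells (23 and 8 cells) had 36.8 and 142 CPM of Prelp from 10 and 12 UMIs, and melanocyte-like cells (105 and 67 cells) had 23.9 and 13.4 CPM. Mural-like cells (26 and 20 cells) had 472 and 588 CPM of Bgn but 13.1 and 0 CPM of Dcn, from 4 and 0 UMIs.

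Mt1, a metallothionein and with Mt2 a leading gene of the matrix-like cluster, had 4388 and 5718 CPM in matrix-like cells. Across the 22 keratinocyte points, Dcn and Mt2 had a Pearson's r of 0.77, but over single matrix-like cells the r of Dcn with the sum of Mt1 and Mt2 was 0.10 and 0.09. Mt1 and Mt2 therefore marked the class with Dcn but hardly the same cells within it, with the caveat that each single-cell value describes 1 library. Shh, another leading gene of that cluster, did go with more Dcn per cell, as given above.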
